A study of Mus musculus with 12 samples.

Results

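The loci of 7 cholangiocyte and liver progenitor marker genes, Krt19, Krt7, Sox9, Sox4, Spp1, Cd24a and Prom1, were followed in the chromatin of fibroblasts undergoing hepatocyte reprogramming. Members were all accessibility peaks that overlapped the annotated body of one of these genes or the 25 kb on either side of it, which gave 67 of the 176680 peaks in the deposited table. The rule that assigns peaks uses gene names and positions and no accessibility value. ATAC-seq measured the accessibility: the Tn5 transposase cuts and tags DNA that is free of nucleosomes, and the reads pile up at such sites.

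The series held 12 libraries in 4 groups of 3, all collected on day 2 from primary fibroblasts of wild-type C57BL/6N mouse embryos at embryonic day 13.5. Every group carried the transactivator rtTA (FUW-rtTA) and received 2 ug/ml doxycycline, which switches on genes behind a tetO promoter. MEF libraries had rtTA alone and Prox1_OE libraries had rtTA with FLAG-tagged mouse Prox1 (tetO-FLAG-mmProx1). The 4in1_GFP_OE libraries had rtTA, the 4in1 cassette of transcription factors (LV.4TF) and tetO-GFP, while 4in1_Prox1_OE libraries had rtTA, the same cassette and tetO-FLAG-mmProx1. The table used here compares these last groups only. Transgenes were delivered by lentivirus to a mixed primary culture, and the share of cells that took up each virus was not given in the sources used here. Per the study's methods, the fibroblasts came from distal limb tissue of several embryos. The labels do not say whether replicates came from separate embryos.

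Each value is the authors' mean over the libraries of a group, in normalized reads per peak, and differences are log2 values of 4in1_Prox1_OE minus 4in1_GFP_OE. No value per library was available and the authors' own test columns were not used. Hence no difference below has an error or a test, and none is set against the spread between replicates. A peak is called lower or higher where the group means differed at least 2-fold, which is 1 on the log2 scale. Nearly all windows (176672) are 201 bases wide, so levels can be compared between peaks per length. In a bulk culture, fewer cells with an open site and a less open site in each cell cannot be told apart.

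Cholangiocytes are the epithelial cells that line the bile ducts. They arise, like hepatocytes, from the bipotent hepatoblasts of the fetal liver, and hepatocytes can take on part of their programme after injury, when Sox9 and Spp1 are commonly used as first signs of this change. Krt19 and Krt7 encode the type I and type II keratins of the duct's cytoskeleton, Sox9 and Sox4 encode HMG-box transcription factors that act in bile duct development, Spp1 encodes the secreted glycoprotein osteopontin, and Cd24a and Prom1 encode surface proteins used to sort progenitor cells. Several of these genes are also used outside the liver. Prox1 is a homeodomain factor that is active in hepatoblasts and hepatocytes, and cholangiocytes have little of it.

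The sequences of 8 peaks are given because they carry large differences at their loci. They were taken from the promoter peak, the most accessible peak and the peaks of lowest and highest difference of each gene, as the 8 of these with the largest differences that lie outside annotated UTRs and hold at least 1 of the 11 motifs searched. They were read from the GRCm38 (mm10) assembly on the plus strand, 5′ to 3′, and capitals mark the motif matches.
Krt7, 11.5 kb upstream of the start site, chr15:101400847-101401047, difference −1.97: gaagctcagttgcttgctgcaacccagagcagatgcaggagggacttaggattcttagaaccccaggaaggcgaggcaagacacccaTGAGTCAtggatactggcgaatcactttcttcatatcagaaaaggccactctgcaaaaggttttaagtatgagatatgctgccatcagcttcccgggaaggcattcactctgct
Prom1, 14.6 kb upstream, chr5:44116487-44116687, difference 1.82: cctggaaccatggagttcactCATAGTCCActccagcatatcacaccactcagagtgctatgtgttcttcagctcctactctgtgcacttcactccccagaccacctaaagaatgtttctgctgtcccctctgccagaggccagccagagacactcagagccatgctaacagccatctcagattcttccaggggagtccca
Spp1, 18.2 kb downstream of the start site, chr5:104453215-104453415, difference −1.57: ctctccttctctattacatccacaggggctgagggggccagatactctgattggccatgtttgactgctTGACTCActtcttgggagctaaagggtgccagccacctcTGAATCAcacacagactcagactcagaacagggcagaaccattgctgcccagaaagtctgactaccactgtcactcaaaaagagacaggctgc
Sox9, 18.7 kb downstream of the start site, chr11:112800792-112800992, difference −1.53: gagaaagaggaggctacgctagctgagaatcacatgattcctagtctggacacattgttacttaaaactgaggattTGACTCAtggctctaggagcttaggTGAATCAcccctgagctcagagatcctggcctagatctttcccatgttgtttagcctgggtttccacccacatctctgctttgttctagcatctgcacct
Krt19, 1.7 kb upstream, chr11:100147673-100147873, difference −1.44: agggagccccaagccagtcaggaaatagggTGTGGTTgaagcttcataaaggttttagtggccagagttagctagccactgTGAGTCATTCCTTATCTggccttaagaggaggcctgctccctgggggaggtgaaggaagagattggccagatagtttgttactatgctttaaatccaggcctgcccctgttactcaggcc
Cd24a, 25.6 kb downstream of the start site, chr10:43604681-43604881, difference −1.40: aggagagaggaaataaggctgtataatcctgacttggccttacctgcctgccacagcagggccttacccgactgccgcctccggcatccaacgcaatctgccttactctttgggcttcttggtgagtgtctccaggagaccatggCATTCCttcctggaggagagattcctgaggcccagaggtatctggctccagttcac
Sox4, 21.7 kb downstream of the start site, chr13:28931873-28932073, difference −1.40: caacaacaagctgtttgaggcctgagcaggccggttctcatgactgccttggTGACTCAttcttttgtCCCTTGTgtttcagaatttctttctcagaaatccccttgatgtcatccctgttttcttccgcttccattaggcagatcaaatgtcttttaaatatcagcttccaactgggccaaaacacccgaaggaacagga
Sox9, 29.5 kb downstream of the start site, chr11:112811630-112811830, difference 0.96: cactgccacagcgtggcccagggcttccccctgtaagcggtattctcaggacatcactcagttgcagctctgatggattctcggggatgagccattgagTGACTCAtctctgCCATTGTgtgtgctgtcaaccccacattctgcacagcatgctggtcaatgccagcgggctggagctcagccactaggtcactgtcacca
The capitals are AP-1 matches (TGANTCA) in the Krt7, Spp1, Sox9, Krt19 and Sox4 windows, where AP-1 is the dimer of Fos and Jun proteins. The Spp1 window and the Sox9 window at 18.7 kb hold 2 AP-1 matches each. In the Krt19 window the AP-1 letters overlap with those of a TEAD match (GGAATG), which run into a match for the GATA factors (AGATAA), and a RUNX match (TGTGGTT) lies further towards the 5′ end. Capitals in the Cd24a window are a TEAD match. A SOX match (ACAANGG) stands beside AP-1 in the Sox4 window and in the Sox9 window at 29.5 kb. The Prom1 window holds an HNF4 match (CAAAGTCCA with at most 1 mismatch). Matches were counted on either strand and describe letters only, not bound factors.

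At most of the marker peaks, accessibility was lower with Prox1. The group mean was lower in 58 of the 67 peaks (86.6%), against 72.3% of all peaks, and the median difference was −0.58 against −0.42 for all peaks. Large differences were no more frequent than elsewhere: 16 peaks (23.9%) were at least 2-fold lower, where the background over all peaks was 24.4%. Only 3 member peaks (4.48%) were at least 2-fold higher, where the background was 8.33%. Summed over the 67 peaks, normalized reads with Prox1 were 0.66 of those with GFP, compared with 0.75 over all peaks.

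The direction of the smaller differences depends on where 0 is placed, because the median of all peaks was itself shifted by −0.42. After that median was subtracted, 40 of the 67 peaks remained below 0 (59.7%), where 50% of all peaks are by construction. Then 7 member peaks (10.4%) were at least 2-fold lower, against 8.64% of all peaks, and 6 (8.96%) at least 2-fold higher, against 13.4%. Scaling both groups to equal totals gave the same 3 counts. Over 5 placings of 0, as deposited and under 4 centrings, 38 peaks stayed below 0, 9 stayed above 0 and 20 changed sign. The shifts were all smaller than 1, so a peak called lower or higher could not change sign under them. Outside the lowest decile of level they were all negative, so peaks above 0 there could only move further up. The plot of differences along the loci shows how the called peaks are spread.

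**Figure D1:**
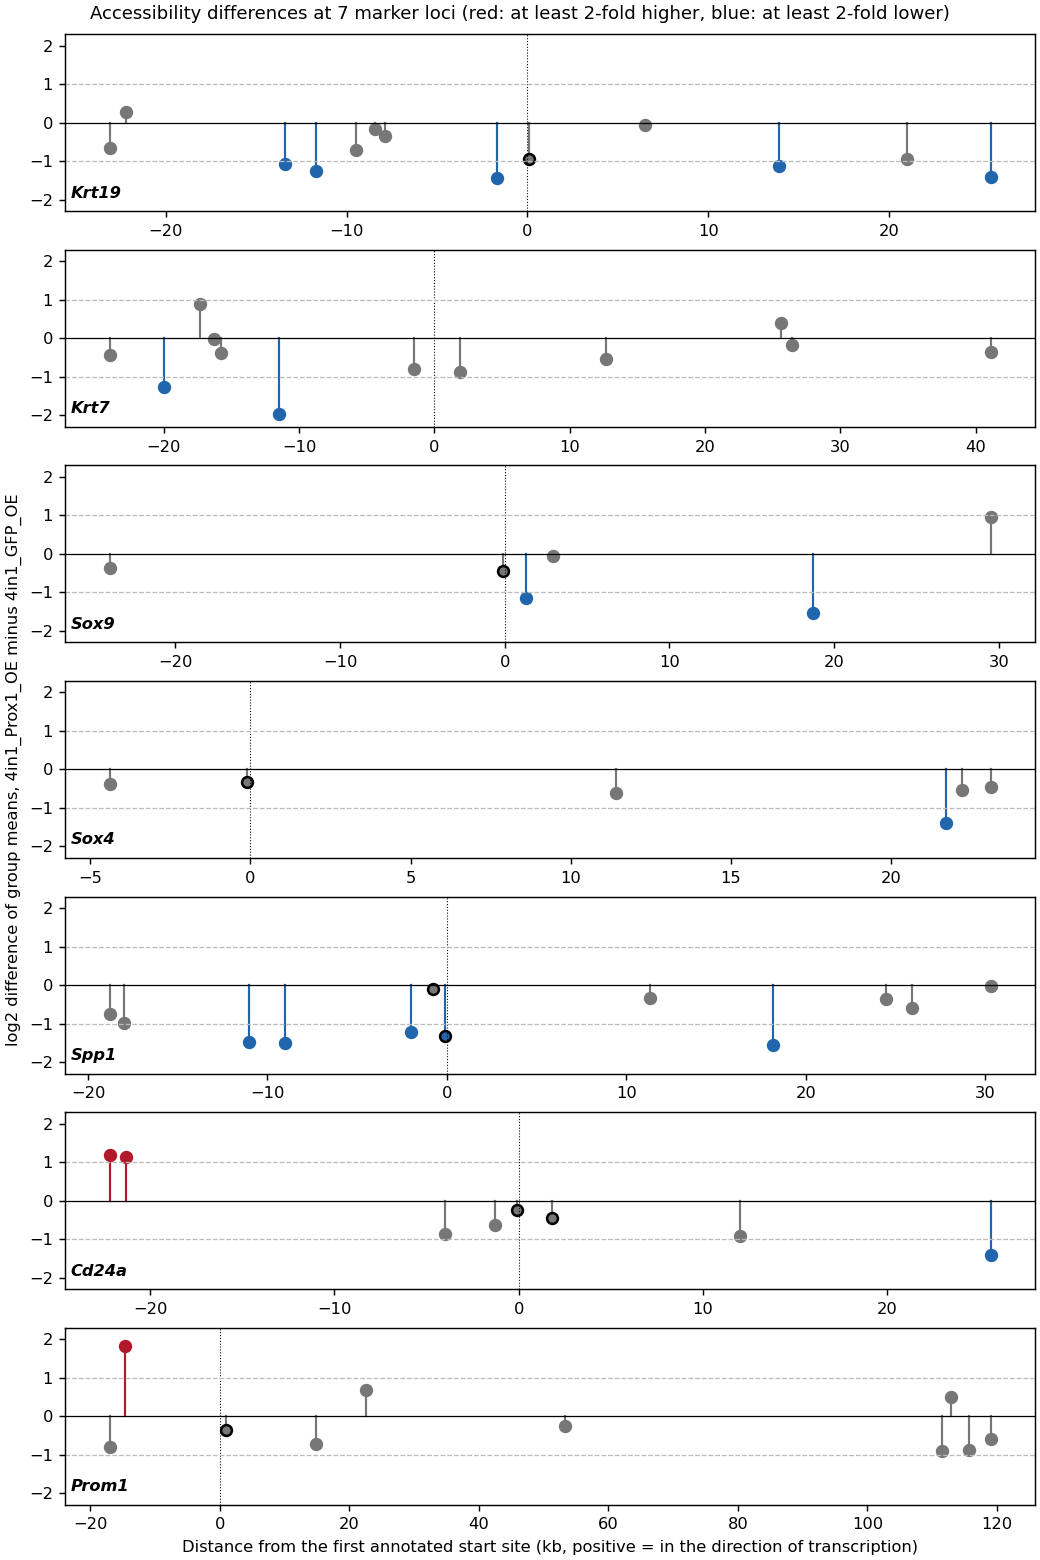
Log2 difference of group means (4in1_Prox1_OE minus 4in1_GFP_OE) at each of the 67 member peaks, by distance in kb from the first annotated start site of its gene, with black rings on peaks within 1 kb of a start site, blue for at least 2-fold lower and red for at least 2-fold higher. Blue peaks lie in all loci but Prom1, and the 3 red ones lie upstream of Cd24a and Prom1.

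Of the keratin genes, Krt19 (chr11:100140810-100148665, minus strand) had the lowest median of the 7 loci. Its 13 peaks had a median of −0.95, 12 of them (92.3%) were lower with Prox1 and 5 (38.5%) at least 2-fold lower. Over all peaks 72.3% were lower and 24.4% at least 2-fold lower, which is the background for the counts at each locus. The peak at its start site, over the 5′ UTR, was at 303 reads with GFP and 157 with Prox1, a difference of −0.95. The window 1.7 kb upstream, whose letters are given above, was the most accessible of the locus with GFP at 346 reads and stood at 128 with Prox1 (−1.44). It lies within the gene's annotated span, near a start site that belongs to a transcript outside the basic annotation. Peaks 11.7 and 13.4 kb upstream, at −1.26 and −1.08, were also called lower. The highest mean level of the locus was 23.1 kb upstream, with 326 reads against 206 (−0.66).

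The Krt19 window also takes in its type I keratin neighbours. Peaks within the spans of Krt13 and Krt15, 25.6 and 13.9 kb downstream, were at −1.42 and −1.13. The only Krt19 peak above 0 was a weak one 22.2 kb upstream, with 50.9 reads against 62.2 (0.29). Without a test, the locus can be described only as lower in nearly all of its measured sites, and under the median centring 9 of the 13 peaks stayed below 0.

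Krt7 (chr15:101411043-101430313, plus strand) differed from Krt19 in both its start site and its spread. No peak lay within 1 kb of its start site in the basic annotation, and the nearest ones were 1.5 kb upstream and 1.9 kb into the gene, in an intron. The upstream peak had 192 reads with GFP and 110 with Prox1 (−0.80), and the intronic peak had 258 and 141 (−0.87). The former adjoins start sites that only the comprehensive annotation lists. The peak 11.5 kb upstream, the first sequence above, had 145 reads with GFP and 37.0 with Prox1, which is 3.92-fold lower. Only 0.448% of all peaks had a lower difference, and it stayed at least 2-fold lower under all 5 placings of 0, as no other member peak did.

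Within the same upstream stretch of Krt7, accessibility went both ways. A peak 17.3 kb upstream had 32.7 reads with GFP and 60.9 with Prox1 (0.89), while the peak 20 kb upstream had 232 and 97.4 (−1.25). The highest mean level, 24 kb upstream, was 338 against 252 reads (−0.42). This stretch overlaps the predicted genes Gm35853 and Gm671, and the downstream side reaches the type II keratin genes Krt87 and Krt88, and 4 of the 12 peaks lay nearest to the start site of another gene (Krt80, Krt87 or Krt88). Over its 12 peaks the median was −0.40, close to that of all peaks, and after median centring 6 were below 0 and 6 above.

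Sox9 (chr11:112782224-112787760, plus strand) held 6 peaks, all nearest to its own start site. Its promoter peak, 0.1 kb upstream, was the strongest of the locus, at 599 reads with GFP and 440 with Prox1 (−0.44). A peak in the intron 1.3 kb into the gene was called lower, with 345 against 155 reads (−1.15), whereas the peak over coding sequence 2.9 kb in was at 256 and 245 (−0.06). Differences of opposite sign lay side by side in the downstream flank. The window at 18.7 kb had 178 reads with GFP and 61.6 with Prox1 (−1.53), and the window at 29.5 kb had 105 and 205 (0.96). Both hold AP-1 letters, with a SOX match beside them only in the second. The downstream gain was just short of 2-fold as deposited. It was at least 2-fold under the 4 centrings, which by construction raise the value of a peak of this level.

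Sox4 (chr13:28948919-28953713, minus strand), whose gene has no intron, had differences of 1 sign. All 6 of its peaks were lower with Prox1, between −1.40 and −0.32, though after median centring 4 of the 6 were. The promoter peak, over the 5′ UTR, was the second strongest of the 6 promoter peaks, at 637 reads with GFP and 509 with Prox1 (−0.32), and was the least changed peak of the locus. A peak 4.4 kb upstream had 406 against 314 reads (−0.37). The called peak lay 21.7 kb downstream, with 116 reads against 44.2 (−1.40), and the peaks on either side of it, at 22.2 and 11.4 kb, were at −0.53 and −0.62.

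Spp1 (chr5:104435118-104441050, plus strand) had the promoter peak with the largest difference. At its start site, 325 reads with GFP stood against 129 with Prox1, a 2.51-fold lower value (−1.33), while a weaker peak 0.8 kb upstream was at 77.1 and 72.1 (−0.10). Upstream of it, 3 peaks were called lower. They lay at 2, 9 and 11 kb and had differences of −1.22, −1.50 and −1.48, with 314, 343 and 179 reads in the GFP group and 134, 122 and 64.2 with Prox1. The window 18.2 kb downstream of the start site, nearest to the start of Pkd2, went from 303 to 102 reads (−1.57). All 12 peaks were lower with Prox1, and after median centring 8 of them were.

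The strongest peak of the Spp1 window was not its own. It covers the start of Pkd2, which encodes the ciliary channel polycystin-2, and had 560 reads with GFP and 435 with Prox1 (−0.36). The peak within Pkd2 at 30.3 kb was the least changed of the window, at 216 and 211 reads (−0.03). All called peaks of this window lay on the Spp1 side of Pkd2, and the 3 peaks over Pkd2 were not called.

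Cd24a (chr10:43578284-43584265, plus strand) had the most accessible promoter of the 7 genes. Its peak over the start site had 646 reads with GFP and 546 with Prox1 (−0.24), which is the smallest promoter difference among the members. A strong peak 25.6 kb downstream had 463 reads against 175 (−1.40), and this one lies within the annotated span of F930017D23Rik. At the other edge of the window, 22.2 and 21.3 kb upstream, a pair of weak peaks had 31.2 and 27.9 reads with GFP and 71.4 and 61.5 with Prox1 (1.19 and 1.14). Both are nearest to the start site of 1700021F05Rik, so 2 of the 3 peaks called higher are not nearest to the gene they were assigned to.

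Prom1 (chr5:43993620-44102032, minus strand) is the longest of the genes and the only one with no peak called lower. Its promoter peak lay in an intron 1 kb from the first start site, also within 1 kb of the start of Gm16401, with 350 reads against 274 (−0.35). The peak 14.6 kb upstream had 18.8 reads with GFP and 66.5 with Prox1, 3.54-fold higher (1.82), which was the lowest GFP level among the 67 peaks and their largest positive difference. With 10 reads added to each mean, it was the only member peak that remained at least 2-fold higher. An intronic peak 22.6 kb into the gene was also higher with Prox1, at 75.1 and 121 reads (0.69). The lowest difference was −0.90, 111.5 kb from the first start site and nearest to Fgfbp1, with 169 reads against 90.7.

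Promoters were the strongest peaks of Sox9, Sox4, Cd24a and Prom1, and all 6 members with a promoter peak had a lower mean with Prox1. Over all promoter peaks 77.9% were lower with Prox1 and 8.26% were at least 2-fold lower, and of the 6 members only Spp1 was called. With a promoter window of 2 kb in place of 1 kb, the peak taken for Krt19 was the one 1.7 kb upstream (−1.44), which is also called lower, and Krt7 gained its intronic peak (−0.87), so that all 7 were lower. Ordered by level in the GFP group, Cd24a (646) was followed by Sox4 (637), Sox9 (599), Prom1 (350), Spp1 (325) and Krt19 (303). No spread is known for these levels, so neighbours in this order cannot be separated. After subtraction of the median of all peaks, Spp1 was at −0.91, Krt19 at −0.53 and Sox9 at −0.03, whereas Sox4, Cd24a and Prom1 were above 0, at 0.09, 0.17 and 0.06. The median of all promoter peaks was −0.21, and after its subtraction all 6 were below 0. After centring by decile of level 4 of the 6 were.

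**Figure D2:**
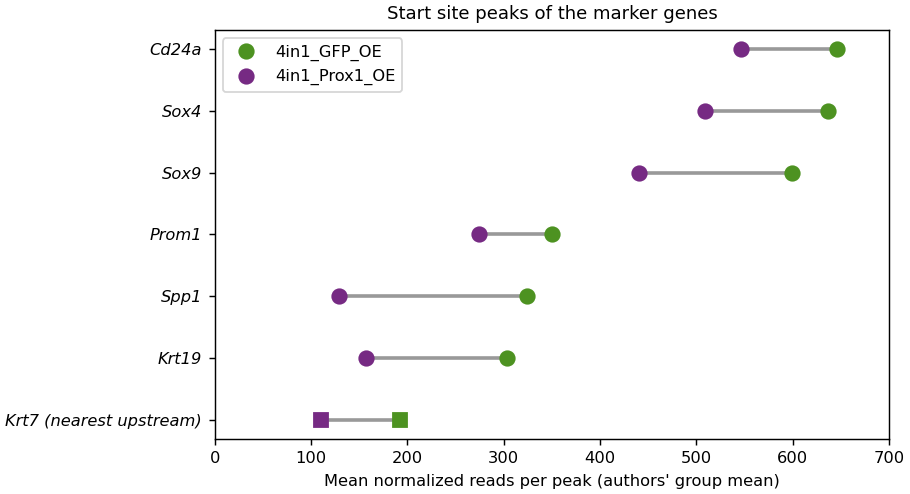
Mean normalized reads per peak in 4in1_GFP_OE (green) and 4in1_Prox1_OE (purple) at the promoter peak of 6 marker genes (circles) and at the nearest upstream peak of Krt7 (squares). The purple point lies left of the green one in every row, and the gap is widest for Spp1, from 325 to 129 reads.

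The sizes of the promoter differences went with CpG content. CpG observed over expected compares the number of CG pairs in a window with the number its base composition predicts, and high values mark CpG islands. Spp1 and Krt19, at 0.16 and 0.29, had the largest differences, Sox9 was intermediate at 0.47, and Prom1, Cd24a and Sox4, at 0.61, 0.89 and 0.92, had differences between −0.35 and −0.24. Over all promoter peaks, those at or above 0.6 had a median of −0.18 and 0.579% were called lower, compared with a median of −0.36 and 17.4% among those under 0.6. By direction alone the order was the opposite, with 82.2% of the former and 72.8% of the latter lower with Prox1. Whether CpG content has a part in the marker differences was not tested.

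**Figure D3:**
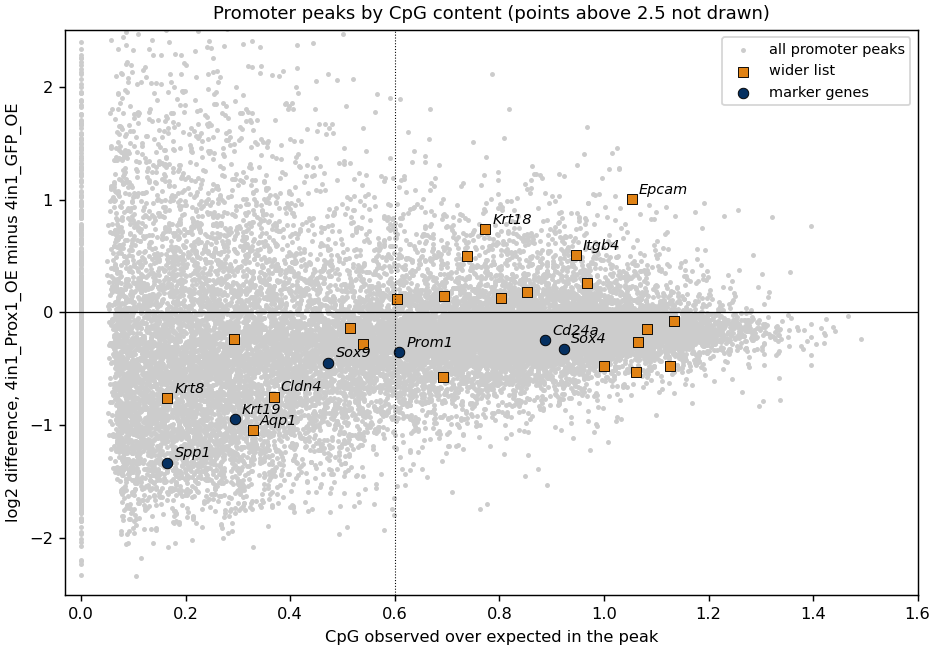
Log2 difference of group means (4in1_Prox1_OE minus 4in1_GFP_OE) against CpG observed over expected for all promoter peaks (grey), 22 genes of a wider cholangiocyte and progenitor list (orange squares) and 6 marker genes (blue circles), with a dotted line at 0.6 and 70 grey points above the upper limit not drawn. Spp1 and Krt19 lie at the lower left, and the wider list reaches above 0 only right of the dotted line.

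A wider list of 25 cholangiocyte and progenitor genes had promoters in both directions. A promoter peak was present for 22 of them, not for Krt23, Pkhd1 and Afp, and 13 of the 22 (59.1%, against 77.9% of all promoter peaks) were lower with Prox1 and 9 higher. In each direction 1 promoter (4.55%) was called, where 8.26% of all promoter peaks were called lower and 3.16% higher. At least 2-fold differences were found for Aqp1, the water channel of bile duct cells, which had 218 reads with GFP and 106 with Prox1 (−1.04), and for Epcam, an epithelial adhesion molecule, with 194 and 389 (1.00). Next lowest were the type II keratin Krt8 (−0.76) and the tight junction gene Cldn4 (−0.75). Next highest were Krt18, the type I partner of Krt8, with 134 and 223 reads (0.74), and the integrin gene Itgb4 (0.51). The sign of these 6 promoters could not change over the 5 placings of 0. Every centring raised their values, and the lower ones lay further below 0 than the shifts reach. Of the 22 promoters, 7 and not 13 were below 0 after median centring.

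All 9 promoters of the wider list that were higher with Prox1 had a CpG value of at least 0.6, and all 6 with a lower CpG value were lower with Prox1. The split by sign is not that of all promoter peaks, given above, and was not tested. In the same windows of gene body and 25 kb flanks, the wider list had 304 peaks with a median of −0.39, of which 65 (21.4%) were called lower and 16 (5.26%) higher. The shares were thus close to the background for lower peaks and under it for higher ones, as for the 7 markers.

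How open a site was in the GFP group went with the direction at the marker loci. All 20 member peaks with at least 300 GFP reads were lower with Prox1, as were 95.3% of all peaks of that level. All 5 member peaks under 50 GFP reads were higher with Prox1, and among all peaks of that level 11.6% were lower. The GFP level is part of the difference, so these shares describe the table and carry no test. Relative to the median of their own decile of mean level, 2 marker peaks were at least 2-fold lower and 4 at least 2-fold higher, in place of 16 and 3 as deposited. These are 2.99% and 5.97% of the 67, against 7.69% and 13.0% of all peaks under the same centring. The 2 lower ones were those 11.5 kb upstream of Krt7 and 25.6 kb downstream of Cd24a.

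**Figure D4:**
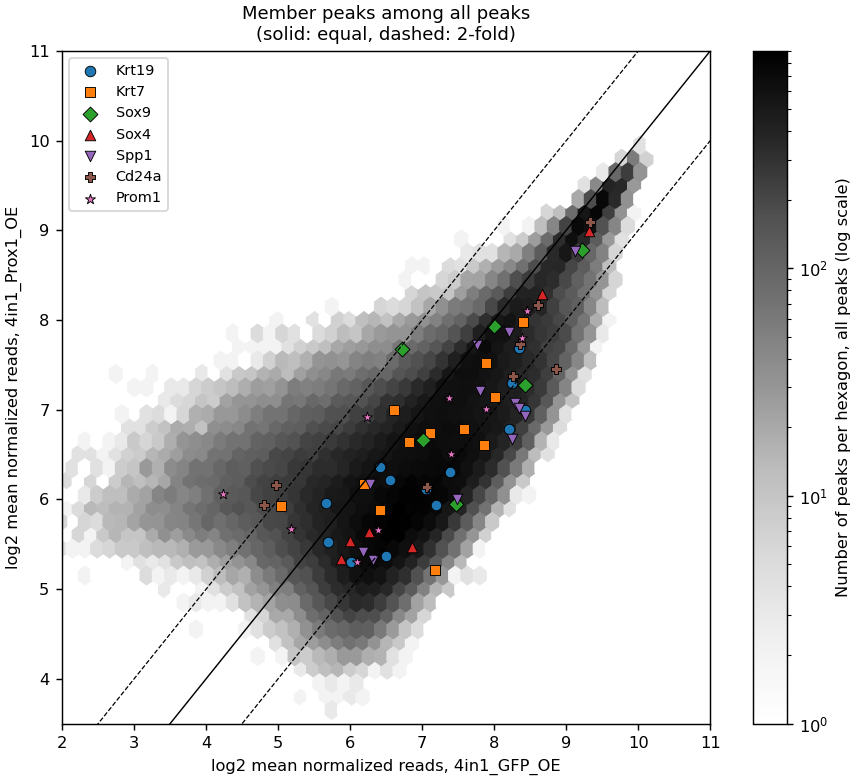
Log2 mean normalized reads with Prox1 against GFP for the 67 member peaks (coloured by gene) over all peaks (grey, density on a log scale, those beyond the axes not drawn), with a solid line at equality and dashed lines at 2-fold. Member peaks lie within the grey cloud, those with few GFP reads above the solid line and those with many below it.

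AP-1 was the most frequent of the motifs at the marker peaks. Its letters were present in 21 of the 67 peaks (31.3%), against 28.8% of all peaks, and TEAD letters in 15 (22.4%, against 20.1%). SOX matches were present in 11 (16.4%, against 9.68%), and RUNX and HNF4 matches in 7 each (10.4%, against 6.49% and 6.59%). CTCF matches were present in 6 (8.96%, against 10.5%), and those of RBPJ (GTGGGAA), the partner of Notch, in 3 (4.48%, against 4.66%). FOXA (TGTTTAC) was found in 2 (2.99%, against 2.65%) and GATA in 1 (1.49%, against 6.72%). These shares rest on few peaks and their differences were not tested. The long HNF1 and PROX1 consensus motifs matched no member peak and 0.237% and 0.306% of all peaks. Of the 16 peaks called lower, 10 (62.5%) had AP-1 letters, as did 46.9% of all peaks called lower.

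Of the 21 member peaks with AP-1 letters 10 (47.6%) were called lower, against 39.7% of all peaks with such letters. By locus, 3 of the 5 AP-1 peaks of Krt19, 2 of 4 at Krt7 and all 3 at Spp1 were called lower. At Sox9 and Sox4 this was 1 of 4 and 1 of 2, and at Cd24a and Prom1 none of 1 and none of 2. Member peaks with AP-1 letters had a median of −0.87 and those without −0.48, beside −0.82 and −0.29 over all peaks.

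**Figure D5:**
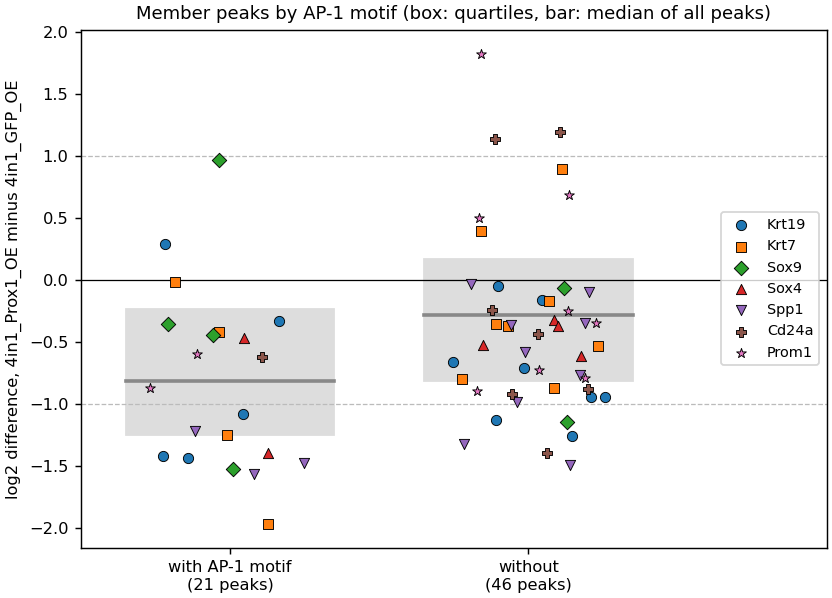
Log2 difference of group means for the 21 member peaks with an AP-1 motif match and the 46 without, coloured by gene, where grey boxes span the quartiles of all peaks of the same kind and grey bars their medians, and sideways position has no meaning. The peaks with a match centre lower, as the grey boxes do.

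Markers of other cells give a frame for these values. All 10 fibroblast markers had a promoter peak and 9 were lower with Prox1, and their summed level was 4062 reads with GFP and 3167 with Prox1, a ratio of 0.78. For the 6 marker promoters the sums were 2860 and 2056, a ratio of 0.72. The ratio was 0.85 over all promoter peaks and 0.92 over the promoter peaks of the wider list. None of the 8 hepatocyte markers, such as Alb, had a promoter peak. A promoter peak does not by itself set the labelled fibroblast identity apart. It was also present for 22 of the 25 genes of the wider list and for some immune and endothelial markers. Of 3 immune markers Cd68 and Csf1r had a promoter peak, with summed reads of 712 and 392, and of 2 endothelial markers Pecam1 had one, with 304 and 101. The part of any other cell type in the marker differences was not tested. Windows of the hepatocyte genes had 39 peaks with a median of −0.09, of which 7 (17.9%) were called lower and 9 (23.1%) higher. Windows of the fibroblast genes had 114 peaks with a median of −0.69, 35.1% called lower and 4.39% higher. Those of the immune genes had 40 peaks with −0.73, 30% and 10%, and those of the endothelial genes had 34 peaks with −0.38, 17.6% and 5.88%. At the marker loci these values were −0.58, 23.9% and 4.48%, between those of the fibroblast and hepatocyte windows for the median and the share lower, and over all peaks −0.42, 24.4% and 8.33%.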

How the data were processed

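Per the labels and the study's methods, reads were trimmed by Trimmomatic 0.38, mapped on mm10 by Bowtie2 2.3.4.3 and filtered by SAMtools 1.10, Picard 2.18.16 and bedtools 2.27.1, before the authors compared groups in DiffBind 3.4.11. Which caller made the peaks is unclear: the methods and the processing notes give MACS2 2.1.2, the reporting summary gives Genrich. The methods point to the vignette of that DiffBind version for the comparison without stating how reads were normalized. The authors deposited log2 mean normalized reads per peak, over both groups and within each, and these log2 values were used. Read depth per library is unknown, and the precision of a mean cannot be given. The 3 columns with the authors' fold change, p-value and adjusted p-value and the 2 lists of enriched peaks are the authors' own comparison and were not used. MEF and Prox1_OE libraries were not analysed here.

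Differences were Prox1 minus GFP. Genes and start sites came from the GENCODE M21 basic annotation (comprehensive for an alternative), and sequence from GRCm38. All peaks lay within the GRCm38 chromosomes. A promoter peak was the most accessible one within 1 kb of a start site. Distances run from the first start site to the peak's middle. The 11 motifs were searched on both strands as consensus letters written from general knowledge, with 1 mismatch for the 4 long ones. They are not the study's matrices. Steps used Python 3.11.15, numpy 2.4.6, pandas 2.3.3 and matplotlib 3.10.9, tested on simulated data.

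The genes, lists and motifs were chosen with earlier results of these data known. The text names, for each gene, its promoter peak, its most accessible peak and those with the lowest and highest difference, and of the wider list the 3 lowest and 3 highest promoters. Other peaks of the 7 loci, other lists' genes and the Csf1r, Cd68 and Pecam1 values were named after their values were seen. Alternatives covered flanks, placing of 0, thresholds, a filter, 10 added reads and start sites.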

Additional observations from a re-analysis of the deposited data

How the results depend on the processing

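The count of 16 lower peaks became 3, 8, 32 and 50 with flanks of 0, 10, 50 and 100 kb, which hold 14, 37, 110 and 190 peaks. For each flank the background is the share over all peaks, 24.4% called lower and 8.33% called higher. The count of lower peaks became 7 (10.4%) after median centring and with equal totals, against 8.64% and 8.80% of all peaks. After centring by decile of level it was 2 (2.99%, against 7.69%). It was 33 at 1.5-fold and 1 at 3-fold, where the shares of all peaks were not computed. The count of 3 higher peaks became 0, 0, 8 and 14 with these flanks. Where the nearest start site had to be the gene's own, it was 1. It became 6 (8.96%) after median centring and with equal totals, against 13.4% and 13.3% of all peaks. After promoter centring it was 5 (7.46%, against 10.6%). It was 1 with 10 reads added, 0 without the 25% of peaks of lowest level, 6 at 1.5-fold and 1 at 3-fold. Shares of all peaks were not computed for these last settings. The share lower by any amount, 86.6%, became 92.9% without flanks, 59.7% after median centring and with equal totals, 76.1% after promoter centring, 62.7% by decile and 94.2% without the weakest peaks. Over all peaks it was 72.3% as deposited, 50% after median centring and by decile, 50.2% with equal totals and 60.9% after promoter centring. For all peaks without the weakest ones it was not computed. Of the 6 promoters lower, 3 were after median centring and with equal totals, 6 after promoter centring and 4 by decile. Of the 13 in the wider list, 7 were after median centring, with equal totals and by decile, and 10 after promoter centring. Start sites of the comprehensive annotation, and the centrings of the wider list, were chosen after seeing the data. The comprehensive start sites, like the planned promoter window of 2 kb, gave all 7 genes a promoter peak, 7 of 7 lower, and moved Krt19 to its upstream peak (−1.44), which is called lower. The causes of these movements were not tested beyond what each setting changes by its construction.

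No paired analysis was possible because only group means, and no value for any library, were at hand, so the labels' replicate numbers could not be used. For the same reason leaving out each replicate was not run.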

Other observations

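The 18 member peaks nearest to the start site of another protein-coding gene had a median of −0.39, with 3 called lower (16.7%) and 2 higher (11.1%). The 49 nearest to their own gene had a median of −0.62, with 13 called lower (26.5%) and 1 higher (2.04%). Over all peaks 24.4% were called lower and 8.33% higher, and the difference between these sets was not tested. None of the 6 peaks with a CTCF motif match, which lay in the windows of Spp1, Cd24a and Prom1, differed at least 2-fold, and of all peaks with such a match 5.54% were called lower and 3.90% higher, so that few calls among 6 peaks are what the background gives. The 8 intronic member peaks had a median of −0.49, between −1.15 in Sox9 and 0.69 in Prom1.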
